A study of Mus musculus with 6 samples.

Results

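The 8 genes described here encode secreted factors that act mainly on blood and lymph vessels: Vegfa, Vegfb and Vegfc of the vascular endothelial growth factor (VEGF) family, the angiopoietin Angpt1, and the angiopoietin-like genes Angptl2, Angptl4, Angptl6 and Angptl7. They were picked by gene name from the 54532 genes of the deposited tables, with results of the same comparison already known. Their values are therefore given as a description, with no test. All 8 were in both tables, and 7 passed the filter on low counts. The cells were TM3, an immortalised mouse Leydig cell line, and all 6 samples came from this 1 line, grown in medium with fetal bovine serum. Of these, 3 received 0.1‰ dimethyl sulfoxide (DMSO) as vehicle and 3 received pyrotinib at 100 nM, each for 48 h. Pyrotinib is an irreversible inhibitor of EGFR, HER2 and HER4, receptor kinases of the ErbB family, and toxicity of the drug to male reproduction is the subject of the series.

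VEGF ligands bind receptor tyrosine kinases on endothelial cells and drive vessel growth: VEGF-A works through the receptors encoded by Flt1 and Kdr, VEGF-B through Flt1, and VEGF-C and VEGF-D through Flt4, the receptor of lymphatic endothelium. Angiopoietins bind the endothelial receptor Tie2, encoded by Tek, and stabilise or loosen vessels. Angiopoietin-like proteins are built alike but do not bind Tie2, and several of them control lipid metabolism; ANGPTL4 inhibits lipoprotein lipase. In the testis, Leydig cells lie beside capillaries and are a known source of VEGF-A.

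RefSeq promoter sequence (build GRCm38.p6, the 250 bases before the annotated start) was found for 6 of the 8 genes, Angpt1 and Angptl4 being the others. The windows of 3 genes are shown 5′ to 3′: Vegfa, the most abundant ligand and lower with pyrotinib; Angptl7, with the largest difference between groups; and Vegfc, whose difference rested on 2 of the 3 pyrotinib libraries. They lie at chr17:46032378-46032627 (minus strand), chr4:148500463-148500712 (minus strand) and chr8:54077282-54077531 (plus strand). Capitals mark GGGCGG, the core bound by SP and KLF factors, on either strand; the cores of the hypoxia response element, ACGTG and GCGTG, would also be in capitals but occur in none of the 3.
Vegfa: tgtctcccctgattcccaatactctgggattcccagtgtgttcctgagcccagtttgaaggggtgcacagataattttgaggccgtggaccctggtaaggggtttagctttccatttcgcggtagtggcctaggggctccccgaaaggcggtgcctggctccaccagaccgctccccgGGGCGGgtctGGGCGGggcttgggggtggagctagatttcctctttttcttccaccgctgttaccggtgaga
Angptl7: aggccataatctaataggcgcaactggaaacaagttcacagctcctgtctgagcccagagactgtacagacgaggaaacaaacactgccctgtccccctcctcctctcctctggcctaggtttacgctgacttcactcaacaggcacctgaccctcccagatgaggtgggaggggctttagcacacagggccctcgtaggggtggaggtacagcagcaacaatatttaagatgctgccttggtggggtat
Vegfc: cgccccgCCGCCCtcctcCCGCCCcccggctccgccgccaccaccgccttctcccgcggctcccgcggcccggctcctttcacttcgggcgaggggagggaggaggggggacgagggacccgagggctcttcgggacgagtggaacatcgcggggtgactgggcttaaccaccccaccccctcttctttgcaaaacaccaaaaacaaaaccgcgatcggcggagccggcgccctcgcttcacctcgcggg

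Within these windows GGGCGG matched at 2 places for Vegfa, starting 72 and 62 bases before the start, and at 2 for Vegfc, 243 and 232 bases before it. The Vegfb window held 4 matches and the Angptl2 window 2, while those of Angptl6 and Angptl7 held none. Of all 32851 mouse windows of this length, 32.7% held at least 1. The Vegfc window also had 30 CpG dinucleotides and the Vegfb window 26, against 11 for Vegfa, 9 for Angptl2, 4 for Angptl7, 3 for Angptl6 and a median of 6 over all windows. GCGTG was found at 2 places in the Vegfb window and in no other of these 6 windows, and ACGTG in none of them. Of all windows, 28.2% held GCGTG and 16.6% ACGTG. A further Vegfa window inside the gene (chr17:46025164-46025413) held 1 match to each of these cores and 1 to GGGCGG. The AP-1 core TGANTCA (6.75% of all windows), the FOXO core GTAAACA (3.17%), the ATF4 composite TGATGNAA (3.45%), the CREB site TGACGTCA (1.55%), the EGR1 site GCGTGGGCG (0.536%), which contains GCGTG, the E-box CACGTG (6.02%), which contains ACGTG, and the PPAR direct repeat 1 (0.0335%), all searched on both strands, matched in none of the members' windows, which says only that these letters are not in the stretch read.

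Library totals ran from 15005737 to 16171030 counts. The slope of expression on transcript GC content was -0.25 and -0.28 log2 units per 10 percentage points in pyrotinib replicates 1 and 3, 0.0022 in pyrotinib replicate 2 and between -0.012 and 0.019 with DMSO. The share of mitochondrial reads was 3.49% and 3.60% in pyrotinib replicates 1 and 3, 2.70% in pyrotinib replicate 2 and 2.03% to 2.16% with DMSO. Their part in the differences was not tested, and values are also given with a GC correction and for pyrotinib replicate 2 alone. Most Leydig markers were scarce: of 9, Lhcgr and Hsd3b6 had 0 reads, Cyp11a1 had 19 and Cyp17a1 had 17 over all libraries, and Star reached 2.27 ± 0.317 CPM with DMSO. The summed level of the 9 was 4.37 to 5.50 CPM with DMSO and 6.14 to 7.74 with pyrotinib, mostly from Star and Insl3. Insl3 gave 2.18 ± 0.992 CPM with DMSO and 3.04 ± 1.08 with pyrotinib. It shares 404 of its 623 exonic bases with the same-strand gene Jak3, which had 2467 reads. Whether Jak3 reads entered the Insl3 count was not tested. The endothelial markers Kdr, Emcn and Cldn5 had 0 reads and Cdh5 had 2, and the summed level of the 11 endothelial markers was 14.46 to 15.03 CPM with DMSO and 12.12 to 15.98 with pyrotinib, with none of the 4 tested past the threshold. Macrophage markers summed to 11.6 to 15.3 and 12.9 to 15.2 CPM, and Sertoli markers to 0.0640 to 0.200 and 0.188 to 0.676. Cd14 was the largest part of the macrophage sum (10.2 ± 2.05 CPM with DMSO and 10.6 ± 0.946 with pyrotinib). Adgre1, Ptprc and Aif1 had 14, 21 and 29 reads over all libraries. Egfl7 was the largest part of the endothelial sum (9.71 ± 1.11 CPM with DMSO and 6.75 ± 2.22 with pyrotinib).

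Vegfa was the highest of all VEGF and angiopoietin ligands and was lower in every pyrotinib library. It encodes VEGF-A, the main angiogenic factor, and lies (ENSMUSG00000023951) on chromosome 17, 46016993 to 46032369 (mm10, minus strand). Expression is given in CPM, read counts scaled to library size with TMM factors, as mean ± SD (n = 3). Vegfa measured 331, 387 and 346 CPM in DMSO replicates 1, 2 and 3 and 211, 228 and 194 CPM in the pyrotinib replicates. The groups did not overlap, and the lowest DMSO library stood well above the highest pyrotinib library. The means were 355 ± 28.9 and 211 ± 17 CPM, a 1.68-fold lower level (log2 fold change -0.75 ± 0.09 SE). The log2 difference was -0.64 with the GC correction and -0.64 in pyrotinib replicate 2 alone. In bulk RNA, fewer cells that express a gene and less of its RNA per cell cannot be told apart.

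Vegfb and Vegfc did not separate the groups. Vegfb (ENSMUSG00000024962), on chromosome 19, 6982473 to 6987651 (minus strand), encodes a ligand of FLT1 linked to fatty acid uptake by endothelium. Its DMSO libraries were close together at 52.8, 52.2 and 51.6 CPM, and its pyrotinib libraries held 46.0, 55.0 and 42.8. Replicate 2 with pyrotinib was above all DMSO libraries, and replicates 1 and 3, the pair with the GC trend, were below them. With 61.1% GC in its transcripts, Vegfb had a log2 fold change of -0.12 ± 0.10 SE that became 0.02 with the GC correction and 0.08 in pyrotinib replicate 2 alone.

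Vegfc (ENSMUSG00000031520), on chromosome 8, 54077606 to 54187096 (plus strand), encodes the main growth factor of lymphatic vessels. It measured 27.9, 20.7 and 24.5 CPM with DMSO and 33.8, 25.1 and 37.1 with pyrotinib. Pyrotinib replicate 2 lay within the range of the DMSO libraries, and the other pyrotinib libraries lay above it. The 1.31-fold higher mean (log2 fold change 0.39 ± 0.14 SE) was 0.37 with the GC correction, 0.55 without pyrotinib replicate 2 and 0.04 in that library alone.

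**Figure D1:**
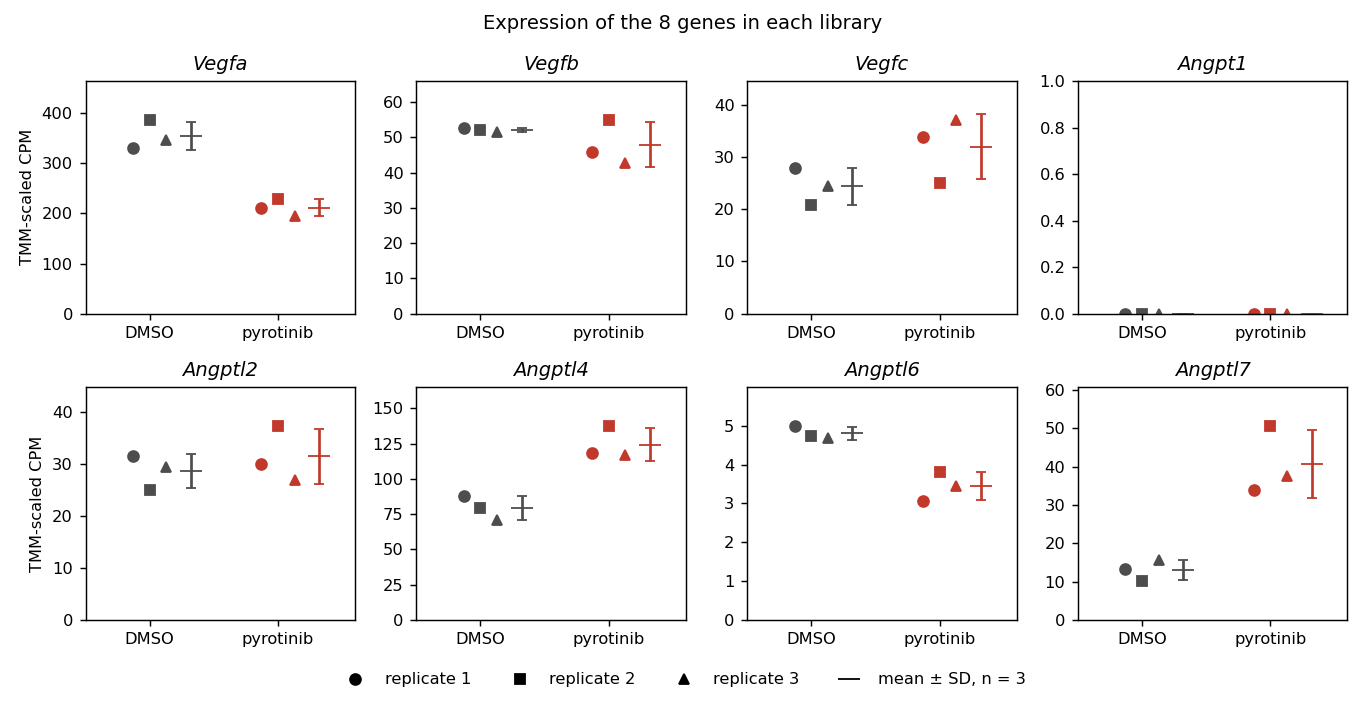
TMM-scaled CPM (y axis, from 0, a different scale in each panel) of the 8 genes in the 3 DMSO (grey) and 3 pyrotinib (red) libraries; symbols mark the replicates and the bar at the right of each group is the mean ± SD (n = 3). Vegfa and Angptl6 were lower and Angptl4 and Angptl7 higher in all 3 pyrotinib libraries, Vegfb, Vegfc and Angptl2 overlapped, and Angpt1 was at 0 throughout.

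The ligands of the VEGF family outside the 8 genes are Vegfd and Pgf. Of these, 1 passed the test, as did 26.0% of all genes tested. Vegfd encodes the other ligand of lymphatic vessels and rose 1.55-fold: it averaged 8.13 ± 1.15 CPM with vehicle and 12.6 ± 1.40 CPM under pyrotinib. This log2 difference of 0.63 ± 0.16 SE had an adjusted p of 0.0085 (edgeR's quasi-likelihood test with Benjamini-Hochberg adjustment over 14125 genes, as for every adjusted p below unless a setting is named). Its 3 pyrotinib libraries, at 14.1, 11.4 and 12.2 CPM, were above all DMSO libraries, at 8.0, 9.34 and 7.05. The call was lost without DMSO replicate 3 (log2 fold change 0.53, adjusted p = 0.054) and in pyrotinib replicate 2 alone (adjusted p = 0.19). Pgf, placental growth factor and a ligand of FLT1, gave 12.2 ± 1.23 and 11.2 ± 1.86 CPM (adjusted p = 0.63).

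Levels of different genes are compared per transcript length, in the FPKM of the authors' table. In the DMSO libraries the order was Vegfa (85.0 ± 7.06 FPKM), Vegfb (33.4 ± 0.359), Angptl4 (24.8 ± 2.65), Vegfc (10.2 ± 1.49), Angptl7 (6.21 ± 1.28), Angptl2 (4.67 ± 0.535) and, below Angpt4, Pgf and Vegfd, Angptl6 (3.12 ± 0.107). The ranges of neighbours did not overlap from Vegfa down to Angptl7, and overlapped at each step from Angptl7 to Angptl6. Vegfa ranked 382 and Angptl6 8285 among the 11755 protein-coding genes tested. With pyrotinib the order was Vegfa (49.9 ± 3.93 FPKM), Angptl4 (38.3 ± 3.44), Vegfb (30.3 ± 3.90), Angptl7 (19.1 ± 4.07) and Vegfc (13.2 ± 2.60), with no overlap between neighbours. Angptl4 thus stood above Vegfb, and Angptl7 above Vegfc, in the pyrotinib libraries, while both stood below them in the DMSO libraries.

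**Figure D2:**
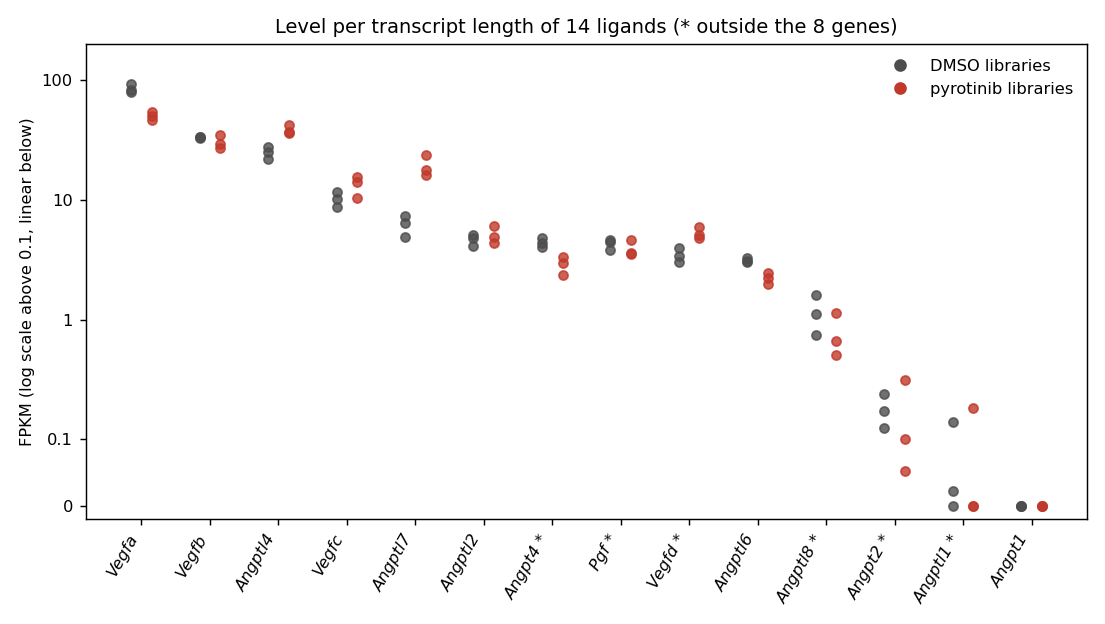
FPKM (y axis, logarithmic above 0.1 and linear below) of 14 ligands of the VEGF, angiopoietin and angiopoietin-like families, ordered by their DMSO mean, with 1 point per library. Vegfa leads in both groups (85.0 and 49.9 FPKM), Angptl7 moves from 6.21 to 19.1 FPKM, and Angpt1 lies at 0 in every library.

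Vegfa made up 60.1%, 64.7% and 61.9% of the summed FPKM of the 5 VEGF ligands with DMSO. Under pyrotinib its share was 48.7%, 49.7% and 47.3%. The sum itself was 132, 143 and 134 FPKM with DMSO and 103, 108 and 97.1 with pyrotinib. Vegfc and Vegfd, the ligands of the lymphatic receptor, held 8.87%, 6.07% and 7.67% and 2.58%, 2.78% and 2.25% with DMSO. With pyrotinib these shares were 13.7%, 9.56% and 15.8% for Vegfc and 5.81%, 4.43% and 5.28% for Vegfd. Shares of 1 sum are tied to each other, so a lower Vegfa level by itself makes the other shares larger. In pyrotinib replicate 2 the Vegfc level, 10.3 FPKM, lay within the DMSO range of 8.71 to 11.7 FPKM while its share lay above the DMSO shares. The mean Vegfb level was 33.4 FPKM with DMSO and 30.3 with pyrotinib, while its share was 23.3% to 25.6% and 27.87% to 31.98%.

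**Figure D3:**
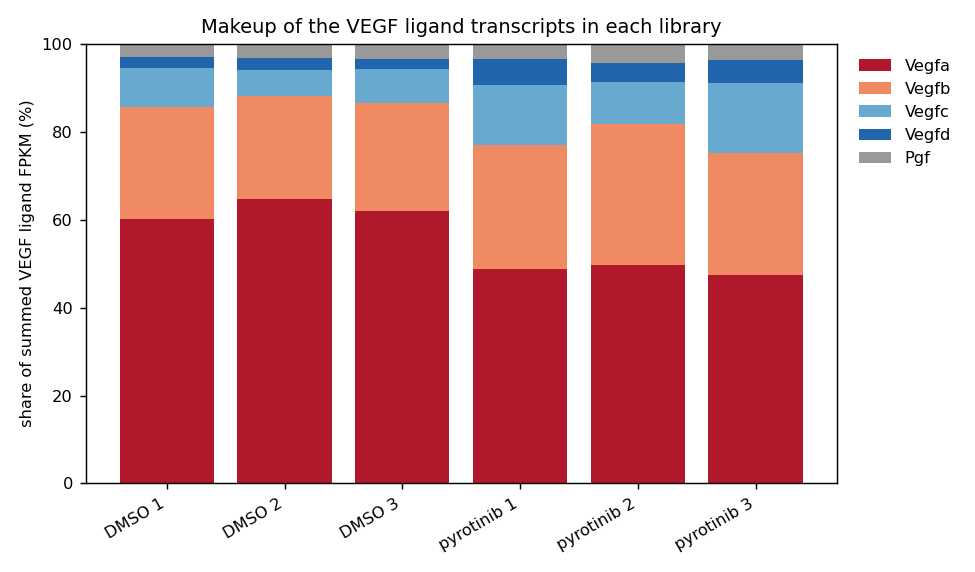
Share of each VEGF ligand in their summed FPKM (y axis, percent) for each of the 6 libraries. The Vegfa share runs from 60.1% to 64.7% with DMSO and from 47.3% to 49.7% under pyrotinib, and the segments of Vegfb, Vegfc and Vegfd are taller with pyrotinib, in part by construction, since the segments add up to the whole.

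Angpt1 (ENSMUSG00000022309), which encodes the activating ligand of Tie2, had 0 reads in all 6 libraries. It lies on chromosome 15, 42424723 to 42676977 (minus strand). A count of 0 allows up to 3 reads, or 0.184 to 0.200 CPM per library, and covers counting error only, so a difference was not detectable at this depth. Of the other angiopoietins, Angpt2, the context-dependent antagonist of Tie2, had 13, 7 and 10 reads with DMSO and 3, 6 and 18 with pyrotinib. Angpt4 was the most abundant angiopoietin and fell 1.5-fold (adjusted p = 0.020), with means of 9.999 ± 0.890 and 6.64 ± 1.16 CPM and a log2 fold change of -0.59 ± 0.18 SE. Its libraries did not overlap, at 10.9, 9.15 and 9.92 CPM with DMSO and 5.37, 6.88 and 7.66 with pyrotinib. The call was lost without DMSO replicate 1 (adjusted p = 0.079), DMSO replicate 3 (0.055) or pyrotinib replicate 1 (0.093) and with the GC correction (0.058).

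Of the 4 angiopoietin-like members, Angptl4 and Angptl7 were higher with pyrotinib. Angptl4 (ENSMUSG00000002289), on chromosome 17, 33773750 to 33781575 (minus strand), encodes the inhibitor of lipoprotein lipase and is known as a target of PPARs, hypoxia and fasting. It measured 87.7, 79.4 and 70.7 CPM with DMSO and 118, 138 and 117 with pyrotinib. Every pyrotinib library was above every DMSO library, with replicate 2 the highest. The means were 79.3 ± 8.53 and 124 ± 11.5 CPM, a 1.57-fold higher level (log2 fold change 0.65 ± 0.10 SE). It was 0.73 with the GC correction and 0.80 in pyrotinib replicate 2 alone.

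Angptl7 had the largest difference of the 8 genes. This gene (ENSMUSG00000028989) encodes a secreted factor known from the cornea and trabecular meshwork of the eye, and lies on chromosome 4, 148495183 to 148500460 (minus strand). It measured 13.4, 10.2 and 15.5 CPM with DMSO (201, 159 and 249 reads) and 34.0, 50.6 and 37.4 with pyrotinib (531, 824 and 596 reads). The groups lay far apart, and pyrotinib replicate 2 was again the highest. The means were 13.03 ± 2.70 and 40.7 ± 8.79 CPM, 3.12-fold higher with pyrotinib (log2 fold change 1.64 ± 0.16 SE). With the GC correction it was 1.65, and across fits without 1 library it ran from 1.46 to 1.78. Angptl7 took 13.2%, 11.3% and 17.3% of the summed FPKM of the 10 angiopoietin and angiopoietin-like genes with DMSO and 25.3%, 30.4% and 27.2% with pyrotinib, while the share of Angptl4 was 51.8% to 57.9% and 54.2% to 57.9%.

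Angptl2 and Angptl6 were the other members of this group. Angptl2 (ENSMUSG00000004105), on chromosome 2, 33216069 to 33247717 (plus strand), encodes a secreted factor tied to tissue inflammation. It gave 31.4, 25.0 and 29.4 CPM with DMSO and 30.1, 37.3 and 26.9 with pyrotinib, so the groups overlapped and the highest and lowest levels were both in replicates numbered 2. Its log2 fold change was 0.14 ± 0.13 SE, 0.38 in pyrotinib replicate 2 alone and -0.00064 without that library. Angptl6 (ENSMUSG00000038742), on chromosome 9, 20873808 to 20879727 (minus strand), encodes angiopoietin-related growth factor and was the lowest-expressed member with reads. Its counts were 75, 74 and 75 with DMSO and 48, 62 and 55 with pyrotinib, or 5.00, 4.74 and 4.68 against 3.07, 3.81 and 3.45 CPM. The groups did not overlap, and the mean was 1.39-fold lower (log2 fold change -0.48 ± 0.22 SE). Its transcripts hold 63.1% GC, and the log2 difference was -0.32 with the GC correction and -0.33 in pyrotinib replicate 2 alone. Groups without overlap were thus seen for 4 of the 7 members with enough reads, where 40.9% of all 14125 genes tested showed none (20.6% higher and 20.3% lower); since the members were picked with these values known, nothing is read from this count. Of the angiopoietin-like genes outside the 8, Angptl8, a regulator of lipoprotein lipase, gave 0.967 ± 0.361 and 0.652 ± 0.275 CPM (adjusted p = 0.42). Angptl1 had 7 reads with DMSO and 8 with pyrotinib. In all, 4 of the 7 further ligands were tested, of which 1 rose and 1 fell, beside 13.2% and 12.8% of all genes tested. Their median log2 fold change was -0.34 over these 4 genes, and -0.20 both in pyrotinib replicate 2 alone and with the GC correction. On dropping 1 library, 5 of the further ligands were tested, so those medians cover another set of genes. They ran from -0.47 without pyrotinib replicate 3 to -0.04 without pyrotinib replicate 1. The median transcript GC content of the 4 was 56.1%, beside 49.7% over all genes tested.

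**Figure D4:**
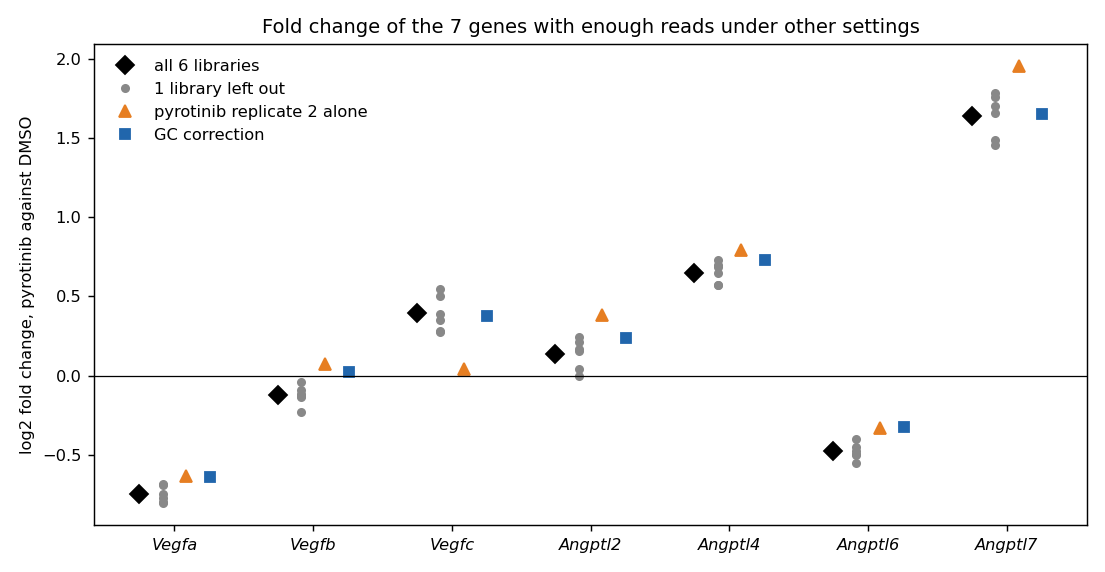
Log2 fold change of pyrotinib against DMSO (y axis) for the 7 genes with enough reads, from all 6 libraries (black), with 1 library left out (grey, 6 points per gene), from pyrotinib replicate 2 alone (orange) and after the GC correction (blue). Vegfa, Angptl6, Angptl4 and Angptl7 keep their sign throughout, Vegfb goes from -0.12 to 0.08 and Vegfc from 0.39 to 0.04 in pyrotinib replicate 2 alone.

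Several members share their locus with a gene on the opposite strand, and the sources used here do not give whether the counting used strand, so reads of the partners may not be told apart. Angptl7 lies within Mtor and Angptl2 within Ralgps1, without shared exonic bases. Mtor, the kinase of the mTOR complexes, gave 52.3 ± 2.81 and 51.3 ± 5.32 CPM (log2 fold change -0.03 ± 0.10 SE, adjusted p = 0.87). Ralgps1, a nucleotide exchange factor for Ral, rose 1.84-fold (4.22 ± 0.906 and 7.76 ± 1.93 CPM, adjusted p = 0.0080), and lost its call without pyrotinib replicate 1 (adjusted p = 0.056). Ralgps1 had 566 reads over all libraries and Angptl2 had 2839. Angptl6 shares 265 exonic bases with A230050P20Rik, which had 7 reads in all, and Angpt1 shares 737 with Gm17473, which had 0. Whether reads of these partners entered the members' counts was not tested. No stretch of 50 bases of Vegfb, Vegfc, Angptl2, Angptl4 or Angptl7 transcripts occurs in the transcripts of another gene in GENCODE M21, and for Vegfa 10 matches were found, over 4400 stretches.

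By the distance between expression profiles over the 6 libraries, each centred on its own mean of log2(CPM + 0.5), the genes most like Vegfa were Selenow, Flcn and Slc22a17. Their root mean square distances were 0.030, 0.032 and 0.040 log2 units, where Vegfa itself deviated from its mean by 0.39. Selenow, a selenoprotein, had 77.9 ± 6.43 and 45.9 ± 2.11 CPM, and Flcn, folliculin, 215 ± 15.7 and 130 ± 14.9. Nearest to Angptl7 was Fgf18, a fibroblast growth factor, at 0.069, with 0.899 ± 0.348 and 3.83 ± 1.08 CPM, then Col11a2 (0.20) and Il17re (0.24). The added 0.5 CPM shrinks differences of genes at such low levels: the fitted log2 fold change of Fgf18 was 2.08, that of Col11a2 1.99 and that of Il17re 1.83, beside 1.64 for Angptl7. The order of these 3 may depend on that addition, which was not tested. Nearest to Angptl4 were Tapbpl, Smyd1 and Mthfsd (0.064 to 0.078), and nearest to Vegfc were Tmem33, Pak3 and Tmem184c (0.043 to 0.051). For Vegfb the nearest were Cic, Cep170b and Ipo4, for Angptl2 Nip7, Midn and Gtf2b, and for Angptl6 Pelp1, Scrib and Cdc42ep5. All these profiles share the same 6 libraries and their 2 groups.

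The genes around these ligands were read from 6 lists chosen by pathway, with earlier results of these data known. The lists held 94 genes, of which 72 were tested. Of the 72, 17 rose and 17 fell, where 13.2% of all genes tested rose and 12.8% fell (26.0% in either direction). Receptors came first. Kdr and Flt4 had 0 reads in every library and Tie1 had 4 in total. Flt1 gave 14, 6 and 16 reads with DMSO and 11, 10 and 7 with pyrotinib (adjusted p = 0.61). Tek, the Tie2 receptor, had 2, 2 and 0 reads with DMSO and 8, 14 and 24 with pyrotinib, too few for the filter; in the fit without one its adjusted p was 0.00085. Beside it, Kdr, Emcn and Cldn5 had 0 reads and Cdh5 had 2. The endothelial marker Pecam1 had 20, 13 and 12 reads with DMSO and 10, 6 and 5 with pyrotinib (adjusted p = 0.11). Eng had 53, 41 and 61 and 81, 71 and 60 (adjusted p = 0.22). Vwf had 12, 6 and 9 and 13, 14 and 22 (adjusted p = 0.23), without overlap of the groups in CPM. Egfl7 had 129, 169 and 156 and 92, 151 and 81 (adjusted p = 0.069).

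The neuropilins, co-receptors for VEGF and for class 3 semaphorins, both had reads in every library. Nrp2 fell 1.38-fold (adjusted p = 0.00088), its log2 fold change being -0.47 ± 0.09 SE. It stood at 252.7, 220.5 and 233.2 CPM with DMSO and at 157.3, 180.8 and 172.6 under pyrotinib, without overlap. Nrp1 gave 75.8 ± 3.94 and 78.5 ± 3.48 CPM (adjusted p = 0.71). Of 9 receptors and co-receptors tested, 3 fell and 1 rose, beside 12.8% and 13.2% of all genes tested. Their median log2 fold change was -0.23, beside 0.0022 over all genes tested. This median was -0.12 with the GC correction and -0.16 in pyrotinib replicate 2 alone. The other calls were integrin subunits, receptors for several angiopoietin-like proteins: Itgb3 fell 1.40-fold (adjusted p = 0.031), Itga5 fell 1.2-fold (0.023) and Itgav rose 1.22-fold (0.027) although its groups overlapped. Each of the 3 calls was lost on dropping one of several single libraries. For Itgb3 the adjusted p was 0.083, 0.052 and 0.11 on dropping DMSO replicates 1, 2 and 3 in turn, and 0.091 on dropping pyrotinib replicate 1. For Itga5 it was 0.096 and 0.10 on dropping DMSO replicates 1 and 3, 0.096 and 0.091 on dropping pyrotinib replicates 1 and 3, and 0.20 with the GC correction. For Itgav it was 0.14 and 0.089 on dropping DMSO replicates 2 and 3, and 0.12 on dropping either pyrotinib replicate 1 or 3. In all, 1 receptor was lower when DMSO replicate 1, DMSO replicate 3 or pyrotinib replicate 1 was dropped, 2 when DMSO replicate 2 or pyrotinib replicate 3 was, and 5 when pyrotinib replicate 2 was.

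Lpl, which encodes the lipoprotein lipase that ANGPTL4 inhibits, rose 1.36-fold (adjusted p = 0.0012, or 0.096 in pyrotinib replicate 2 alone). It measured 682.6, 739.5 and 715.2 CPM with DMSO and 1028, 851.8 and 1032 with pyrotinib, a log2 difference of 0.45 ± 0.09 SE. The groups did not overlap, and pyrotinib replicate 2, the highest for Angptl4, was the lowest for Lpl. Of the 9 tested genes linked to lipase or PPARs, 1 rose, which was Lpl, and 1 fell, beside 13.2% and 12.8% of all genes. The number lower was 0 when DMSO replicate 2 was dropped or pyrotinib replicate 2 stood alone, and 3 when pyrotinib replicate 2 was dropped. The PPAR targets Pdk4 (adjusted p = 0.80), Plin2 (0.54) and Cpt1a (0.19) did not pass, and neither did Ppard (0.98), the PPAR gene with the most reads. The median log2 fold change of this list was -0.04, and 0.09 in pyrotinib replicate 2 alone.

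Among 10 tested genes of ligand processing and VEGF mRNA decay, 3 fell and 1 rose, beside 12.8% and 13.2% of all genes tested. Their median log2 fold change was -0.09. On dropping pyrotinib replicate 2 the number lower was 5, and in that library alone it was 1. The 3 that fell were the whole ZFP36 family of the list, RNA-binding proteins that promote decay of mRNAs with AU-rich elements, Vegfa among their known targets. Zfp36 fell 1.77-fold (36.4 ± 2.80 to 20.5 ± 5.28 CPM, adjusted p = 0.00061), Zfp36l1 1.56-fold (160 ± 10.3 to 103 ± 9.55 CPM, adjusted p = 9.7e-05) and Zfp36l2 1.23-fold (adjusted p = 0.011). The call of Zfp36l2 was lost without DMSO replicate 3 (adjusted p = 0.071) or pyrotinib replicate 3 (0.080). Pcsk6, a proprotein convertase, rose 1.53-fold (adjusted p = 0.0025), while Furin, which cleaves VEGF-C and ANGPTL4, gave 57.7 ± 4.91 and 54.7 ± 10.7 CPM (adjusted p = 0.67).

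Vegfa and Angptl4 are both known targets of hypoxia-inducible factors, and genes of that list moved both ways. Of 19 tested, 6 fell and 3 rose, beside 12.8% and 13.2% of all genes tested. Their median log2 fold change was -0.12, and it was -0.056 with the GC correction and -0.015 in pyrotinib replicate 2 alone. Ndrg1 fell 1.55-fold (adjusted p = 0.00045), the histone demethylase Kdm3a 1.30-fold (0.0020) and Bhlhe40, a transcriptional repressor, 1.35-fold (0.0084, or 0.055 without pyrotinib replicate 3). Pdk1, which limits pyruvate oxidation, rose 1.49-fold (0.00037), and Loxl2, a lysyl oxidase, 1.53-fold (0.00012). Car9, an established hypoxia marker, gave 164 ± 4.09 and 162 ± 6.83 CPM (adjusted p = 0.89). Hif1a itself rose 1.26-fold (adjusted p = 0.012). Its call was lost with the GC correction (log2 fold change 0.11, adjusted p = 0.19) and without DMSO replicate 2 (0.061), DMSO replicate 3 (0.063) or pyrotinib replicate 1 (0.082). Epas1, which encodes the second oxygen-regulated subunit, had 10 reads in all. The other genes of the list that fell were Arnt (1.21-fold, adjusted p = 0.015), P4ha1 (1.24-fold, 0.012) and Ankrd37 (1.73-fold, 0.012). How these calls fared under other settings is not listed here. Ankrd37, with 750 reads, shares 57 exonic bases with opposite-strand Ufsp2, which had 4392 reads. On dropping 1 library, the number lower in this list ran from 2 (without pyrotinib replicate 3) to 9 (without pyrotinib replicate 2). Without DMSO replicate 2 it was 3. The GC correction and the replicate block each gave 7 lower genes.

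Of 21 other secreted factors that act on vessels, 10 rose and 3 fell, where 13.2% of all genes tested rose and 12.8% fell. Like the other lists, this list was chosen with earlier results of these data known. Its median log2 fold change was 0.30, and the median GC content of its transcripts was 49.4%, beside 49.7% over all genes tested. With the GC correction 12 rose and 3 fell, in pyrotinib replicate 2 alone 6 rose and 2 fell, and without DMSO replicate 3 it was 6 and 3. Fgf2, a growth factor for endothelium, rose 2.21-fold, from 23.0, 19.3 and 21.1 CPM to 49.3, 38.4 and 52.6 (adjusted p = 1.0e-05). Sema3c and Sema3a, semaphorins that bind neuropilins, rose 2.05-fold (149 ± 6.63 and 306.4 ± 41.5 CPM, adjusted p = 1.6e-06) and 1.66-fold (adjusted p = 0.00013). Timp3, a metalloproteinase inhibitor that blocks VEGF binding to its receptor, rose 1.53-fold (325 ± 16.7 to 496 ± 11.7 CPM, adjusted p = 4.7e-05). Pdgfc, a platelet-derived growth factor, rose 1.54-fold (adjusted p = 0.00039). The 3 that fell, named after their values were seen, were Cyr61 (1.42-fold, adjusted p = 0.0060), the antiangiogenic Serpinf1 (1.28-fold, 0.0024) and the Notch ligand Jag1 (1.41-fold, 0.00091). Exons of Fgf2, Timp3, Zfp36l1 and Hif1a overlap opposite-strand genes, with 162 reads for Nudt6, 168 for Syn3, 114 for Gm26669 and 273 for Gm15283 over all libraries, against 3218, 38841, 12399 and 36423 for the genes named. Of 3 tested pericyte markers, Pdgfrb, a receptor for platelet-derived growth factors, fell (222 ± 8.61 and 166 ± 16.6 CPM, adjusted p = 0.0021). Neither Notch3 (365 ± 22.6 and 338 ± 22.9 CPM, adjusted p = 0.36) nor Des (adjusted p = 0.065) passed. The pericyte marker Kcnj8 had 0 reads, and Abcc9, Rgs5 and Cspg4 had 1, 10 and 51 over all libraries. The summed level of all 7 was 565 to 626 CPM with DMSO and 476 to 556 with pyrotinib, mostly from Notch3 and Pdgfrb.

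**Figure D5:**
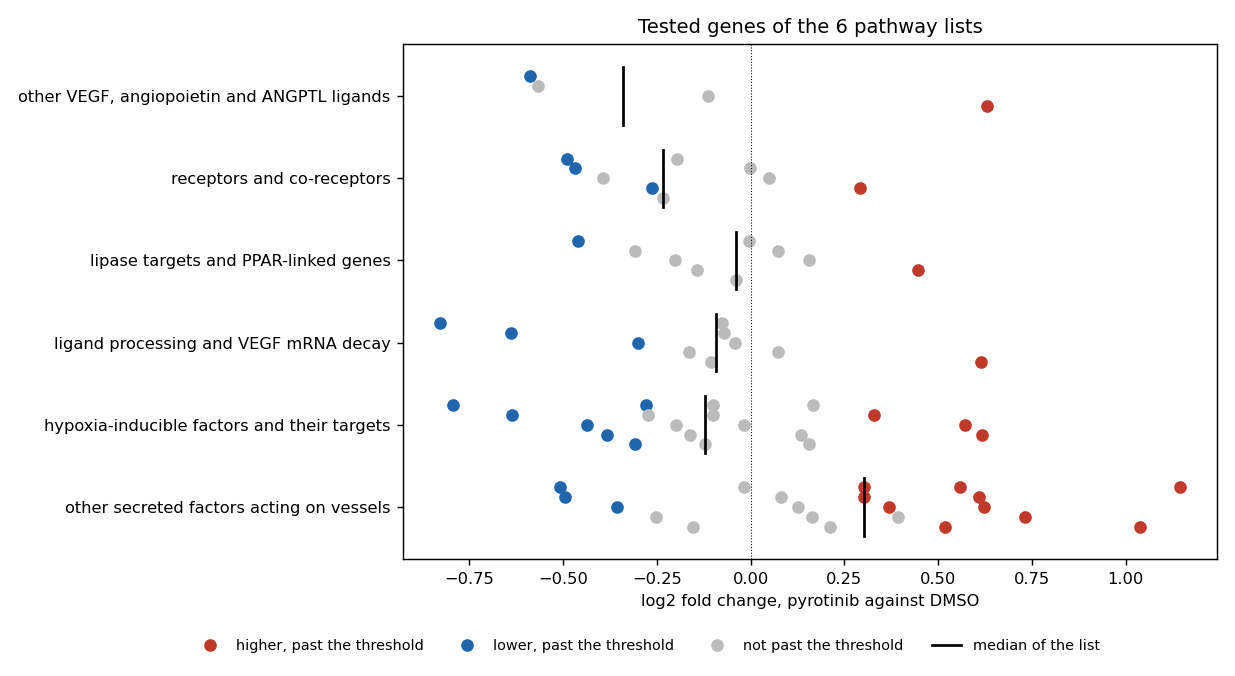
Log2 fold change of pyrotinib against DMSO (x axis) of each tested gene in the 6 lists (rows), red or blue where it passed the edgeR threshold as higher or lower and grey where it did not, with the median of each list as a bar. The list of other secreted factors has 10 genes higher and 3 lower, the others have 1 to 3 higher and 1 to 6 lower.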

How the data were processed

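Poly(A) RNA of 6 samples was sequenced as read pairs. The authors deposited whole-number read counts per gene and a second table in FPKM; the submitters' processing notes name fastp, HISAT2 2.0.5, featureCounts 1.5.0-p3, DESeq2 1.20.0 and build mm10, with no roles or settings and nothing on the annotation release, strand setting or multi-mapping reads (not given in the sources used here).

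Statistics: the test was run with edgeR 4.0.16 under R 4.3.3: filterByExpr defaults (minimum count 10, minimum total 15; 14125 genes), TMM scaling and the two-sided quasi-likelihood F-test of 3 pyrotinib against 3 DMSO libraries, Benjamini-Hochberg threshold 0.05. Standard errors are approximate, taken as the log2 fold change over the square root of F. The FPKM values were used as deposited for levels, and as log2 with limma 3.58.1 in alternatives. Transcript GC content, overlaps and shared stretches came from GENCODE M21. There 98.3% of the shared genes have the deposited position, but Angptl4 does not, so its values come from another gene model. The GC correction is a lowess curve (span 0.3) per library. The test was tested on simulated data.

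Members and gene lists were chosen with earlier results of these data known. Of each list, up to 5 genes past the threshold by smallest adjusted p were named, plus fixed ligands and receptors. Some items are not reported here. Furin, Car9, Pdk4, Plin2, Cpt1a, Ppard, Pecam1, Eng, Egfl7, Vwf, Cd14, Notch3 and Des were named outside this rule after their values were seen. So were Arnt, P4ha1, Ankrd37 and Insl3. The 3 genes nearest to a member in root mean square distance were computed on log2(CPM + 0.5), for protein-coding genes without Gm or Rik symbols; Ero1a and Ccn1 are Ero1l and Cyr61 in the table. Replicates are numbered 1 to 3 in both groups but are not said to be separate cultures; the p-values then reflect just the variation among these samples, which may be technical. Chi-square per degree of freedom between libraries of a group was 3.93 to 14.8, so none was a copy. Alternatives were DESeq2 1.42.0, limma-voom, other scalings and filters, a replicate block, leaving out libraries, the GC correction and the FPKM table.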

Additional observations from a re-analysis of the deposited data

How the results depend on the processing

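The edgeR test called 3667 genes, and 17 higher and 17 lower genes in the 6 pathway lists. Leaving out 1 library gave 1956 (without DMSO replicate 2; 2164 without pyrotinib replicate 3) to 5226 genes (without pyrotinib replicate 2), 11 (without DMSO replicate 3) to 17 higher and 11 (without DMSO replicate 3 or pyrotinib replicate 3) to 27 lower pathway genes (without pyrotinib replicate 2). Pyrotinib replicate 2 alone, which is assumed to vary like the DMSO libraries, gave 968 genes, 10 higher and 6 lower, and lost the calls of Vegfd, Angpt4, Itgav, Itgb3, Itga5, Lpl, Zfp36, Zfp36l2, Hif1a, Bhlhe40, Pdgfrb, Cyr61 and Ralgps1. limma-trend on FPKM gave 2179 genes with a pseudocount of 1, 2185 with 0.1, and 561 with no filter, where 5 pathway genes were higher and 4 lower and 39.9% of all calls were higher, against 50.8% with edgeR; the cause was not tested. The unfiltered FPKM setting also lost most calls named in the text; Nrp2, Zfp36l1, Pdk1, Kdm3a, Loxl2, Fgf2, Timp3, Sema3c and Jag1 passed in all 19 alternatives. DESeq2, limma-voom, other scalings, count filters and the GC correction kept these counts within 1.5 times. Vegfb changed sign in pyrotinib replicate 2 alone (0.08), with the GC correction (0.021) and with that correction and the replicate block (0.0205), and Angptl2 did so without pyrotinib replicate 2 (-0.00064, the lowest of its leave-one-out values, the highest being 0.24). Vegfa, Vegfc, Angptl4, Angptl6 and Angptl7 kept their sign in all 19 alternatives. Deviations of same-numbered libraries were weakly correlated (0.0050, 0.076 and 0.023 for replicates 1, 2 and 3). The value for replicates 2 was the largest of all pairs, while DMSO replicate 1 correlated best with pyrotinib replicate 3 (0.056). With 3 libraries per group, such small values cannot decide whether the numbers pair the samples. The replicate block gave 4265 genes, with 18 pathway genes higher and 19 lower. Depth limits Angpt1, Kdr and Flt4, with 0 reads, and Tek, Flt1 and Angpt2.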
